A study of Mus musculus with 12 samples.

Results

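The transcripts of 8 receptors of the tumour necrosis factor (TNF) receptor superfamily that T cells carry were followed across 12 RNA-seq libraries of sorted mouse CD4 T cells. The members, Tnfrsf4, Tnfrsf9, Tnfrsf18, Cd27, Tnfrsf1b, Tnfrsf1a, Tnfrsf25 and Fas, were found by gene symbol among 24351 symbols named in the deposited tables. All 8 had an entry in every library and all 8 passed the filter on low values, but Tnfrsf4 and Cd27 shared an entry with a neighbouring gene in most libraries. Poly(A)-selected, strand-specific libraries had been made from spleen cells of C57BL/6 mice, in 4 groups of 3 libraries. The sort gates were CXCR5+ PD-1+ for T follicular helper (TFH) cells and CXCR5- PD-1- for non-TFH cells. Mice of all groups were homozygous for a floxed allele of Ets1, a transcription factor of the ETS family. WT mice had no other stated change, and KO mice also carried CD4-cre, in which the Cd4 promoter drives Cre from the thymus onward in CD4 and CD8 T cells. The labels state no immunisation, age or sex, and leave it unsaid whether each library is 1 mouse or a pool. The p-values therefore cover the spread between these libraries alone, and that spread may be technical.

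The receptors followed here are type I membrane proteins that bind trimeric ligands of the TNF superfamily. Members without a death domain, among them OX40, 4-1BB, GITR, CD27 and TNFR2, recruit TRAF adaptors and activate NF-kB, and on T cells they act as costimulatory receptors that support survival and expansion after antigen contact. Members with a death domain, among them TNFR1, DR3 and Fas, recruit TRADD or FADD and can lead either to NF-kB or to caspase-8 and cell death. In the follicle, TFH cells meet B cells that present several of the ligands.

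Levels are FPKM, fragment counts normalised to transcript length and sequencing depth, and scaled here so that the median gene is level across libraries. Changes are differences of log2(scaled FPKM + 1) with their standard error (SE), and they understate the change of genes at low levels. They were called at a limma p, adjusted by Benjamini-Hochberg over 11101 features, below 0.05. Beside these, an exact two-sided permutation test of 3 against 3 libraries cannot go below 0.1, and it gave 0.1 for every member called in a comparison of 2 groups except Fas between KO TFH and KO non-TFH cells, where it gave 0.2.

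The labels were checked against markers. The summed level of 6 T cell genes lay between 1818 and 3369 in all groups, and that of Cxcr5, Pdcd1 and Bcl6, the first 2 of which encode the gate markers, was 8.07 to 20.1 in non-TFH and 521 to 913 in TFH libraries. Ets1 itself stood at 402 to 411 in WT against 380 to 413 in KO non-TFH cells, and at 170 to 214 in WT against 222 to 270 in KO TFH cells, so its transcript did not fall with the KO label. The value is a total over the exons of the gene, and no value for the floxed segment alone was at hand. Whether the segment was deleted in the KO libraries was thus not tested. Genotypes are given as labelled. Markers of other cell types differed between WT and KO TFH libraries, and in bulk libraries fewer cells of a type and less RNA per cell cannot be told apart. The sum of 9 macrophage genes was 1096 to 1950 in WT and 180 to 239 in KO TFH cells, against 12.6 to 38.2 in all non-TFH libraries, and all 9 were lower in KO TFH cells by limma. The sum of 6 B cell genes was 61.7 to 70.9 in WT and 35.4 to 41.1 in KO TFH cells, and that of 5 dendritic cell genes was 20.3 to 28.5 against 5.98 to 12.2. Sex-linked genes also differed between groups. No KO TFH library held a value above 0 for the Y-linked gene Ddx3y, which lay at 40.4 to 68.1 in the non-TFH libraries that held a value for it and at 33.4, 2.21 and 5.25 in WT TFH libraries. Xist, expressed from the inactive X chromosome of females, was at 23.2, 16.6 and 14.8 in KO TFH and at 0, 15.9 and 13.6 in WT TFH libraries. Its level was 19.7, 0.324 and 0.0827 in KO non-TFH libraries, and 1.81 and 0.163 in the WT non-TFH libraries with a value. WT TFH replicates 2 and 3 were thus nearer to the KO TFH libraries in both genes than WT TFH replicate 1 was. Without that replicate the calls in TFH cells given below for Tnfrsf18, Tnfrsf25, Tnfrsf1b and Tnfrsf1a also passed (-0.98, -2.11, -1.38 and -1.81). The WT libraries left still held Ddx3y where the KO TFH libraries held none, so this does not test the part of sex. The ranges of Ddx3y did not overlap between TFH and non-TFH libraries of either genotype, or between WT and KO TFH libraries. The ranges of Xist overlapped in each of these comparisons. WT TFH replicate 1 held no Xist. Its level of Eif2s3y, another Y-linked gene, was 59.1, against 73.3 and 82.0 in the WT non-TFH libraries with a value. Cell type or genotype thus went with the sex of the mice at least in part, and their shares cannot be told apart here. In non-TFH cells Ddx3y lay at 51.8 and 68.1 in WT and at 40.4 to 44.6 in KO libraries. The part of sex was not tested in any comparison. All 8 members are autosomal.

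Of the 8 receptors, 4 were lower in KO than in WT TFH cells and none was higher, where 30.9% of all features tested were called and 15.1% were called lower. In non-TFH cells 2 were higher and 2 were lower in KO, where 20.4% of all features were called, 11.8% higher and 8.58% lower. Tnfrsf1a and Tnfrsf25, both receptors with a death domain, were lower in KO cells of both kinds. Tnfrsf18 was higher in KO non-TFH cells and lower in KO TFH cells. Tnfrsf9 was 3.25 log2 units higher in KO non-TFH cells, and Tnfrsf1b was lower in KO TFH cells and not called in non-TFH cells, with a called difference between both changes. The groups did not overlap for 4 of 8 members in TFH cells, where 37.4% of features did not, and for 7 of 8 in non-TFH cells, where 51.6% did not.

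**Figure D1:**
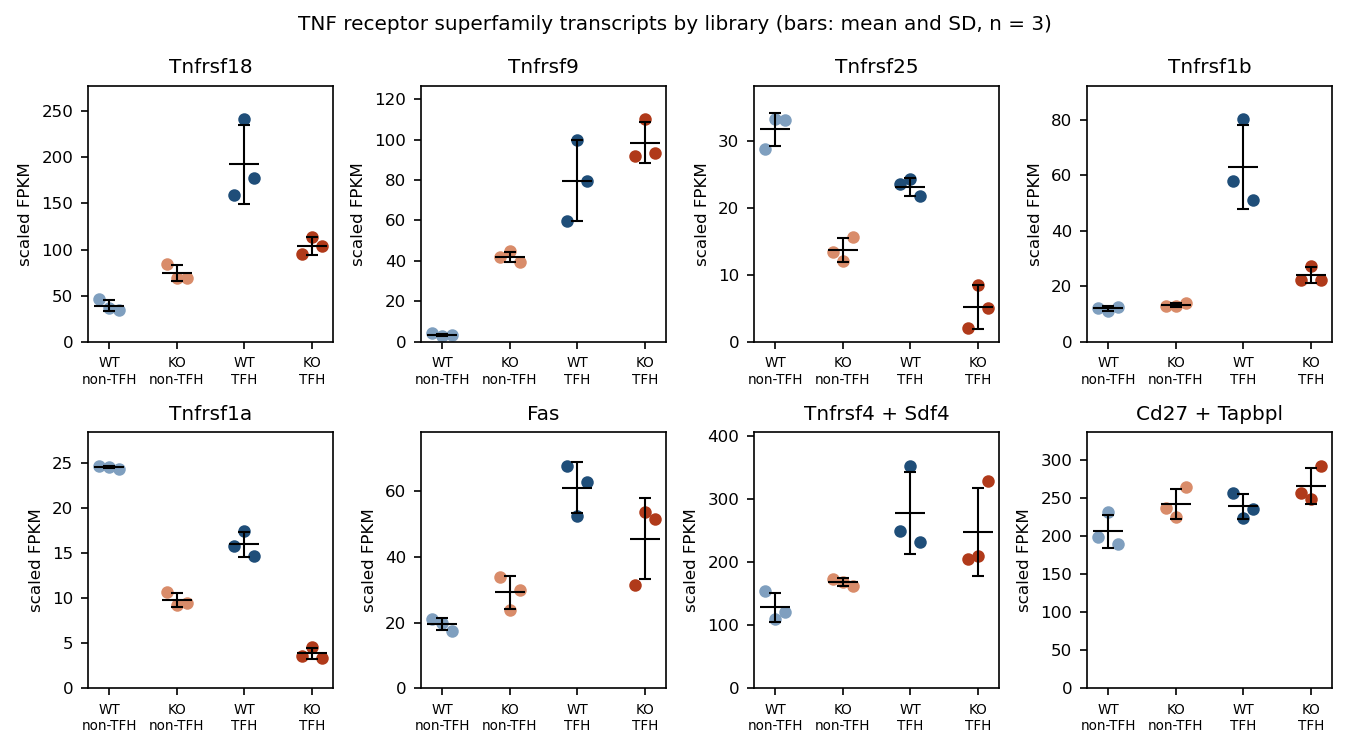
Scaled FPKM on the vertical axis of each receptor in each of 12 libraries, by group, with a bar for the mean and whiskers for the SD over 3 libraries. Tnfrsf9 lies at 3.10 to 4.13 in WT non-TFH libraries and at 39.7 to 110 in the other 9, while Tnfrsf1a and Tnfrsf25 lie lowest in KO TFH libraries.

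**Figure D2:**
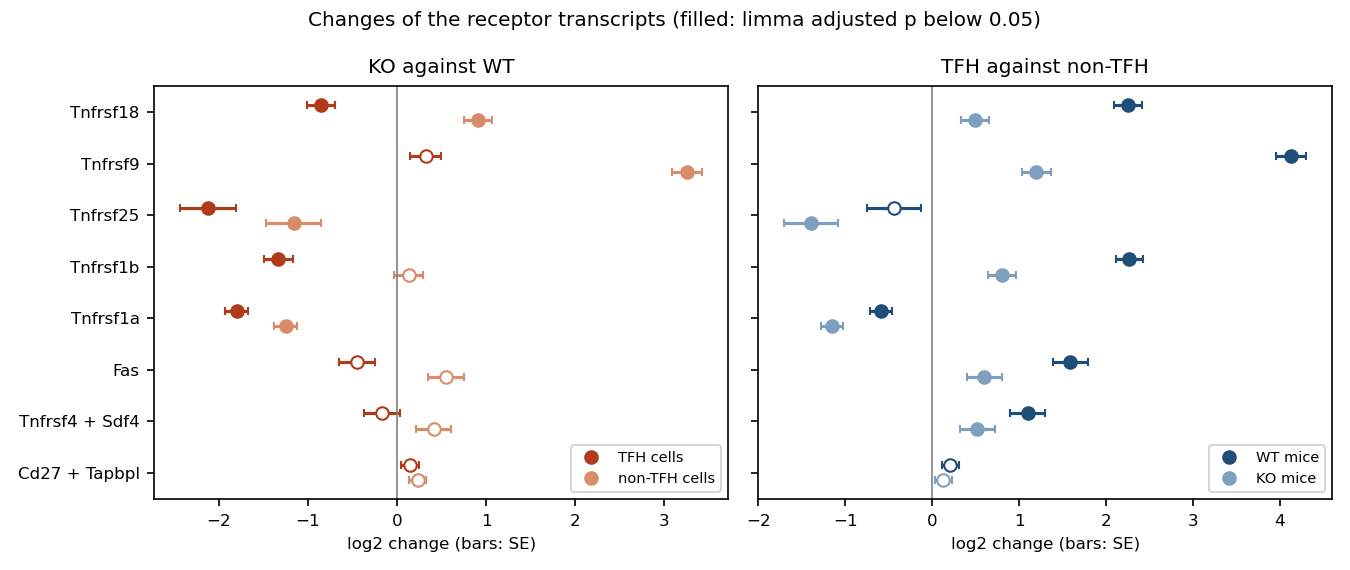
Log2 change of each receptor on the horizontal axis with its SE, for KO against WT on the left (TFH and non-TFH cells) and for TFH against non-TFH cells on the right (WT and KO mice). Filled points passed limma's adjusted p. Tnfrsf18 lies on opposite sides of 0 in the 2 cell types on the left, and Tnfrsf1a and Tnfrsf25 lie left of 0 in both.

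Tnfrsf9 encodes 4-1BB (CD137), an activation-induced costimulatory receptor that supports survival of T cells. The gene lies on chromosome 4, 150914562 to 150946102 on the plus strand (GENCODE M21, mm10), overlapping Camta1 on the other strand. WT non-TFH libraries held 4.13, 3.10 and 3.37 FPKM, and KO non-TFH libraries 42.0, 44.7 and 39.7. WT TFH libraries held 59.8, 99.7 and 79.4, and KO TFH libraries 91.8, 110 and 93.2. WT non-TFH cells thus stood apart from all other groups, and the TFH groups overlapped each other. The mean rose from 3.53 ± 0.533 to 42.1 ± 2.52 in non-TFH cells (SD, n = 3), a log2 change of 3.25 ± 0.17 (SE, limma adjusted p = 1.3e-07). In TFH cells the change was 0.32 ± 0.17 (adjusted p = 0.16), from 79.6 ± 20.0 to 98.2 ± 9.87, and without WT TFH replicate 2 it was 0.50 (adjusted p = 0.029, with 0.029 to 0.51 over all alternatives). The changes in the 2 cell types differed by -2.93 ± 0.23 (adjusted p = 1.2e-05). TFH cells were higher than non-TFH cells by 4.13 ± 0.17 in WT (adjusted p = 2.4e-09) and by 1.20 ± 0.17 in KO mice (adjusted p = 4.9e-05).

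Genes of cytotoxic cells were higher in KO non-TFH cells as well. The sum of 5 CD8 T cell and NK cell markers was 16.9 to 19.1 in WT and 176 to 202 in KO non-TFH libraries, with 3 of the 5 higher. Gzmb, the protease granzyme B, went from 0.427 ± 0.137 to 49.9 ± 6.26 FPKM. Cd8b1, a CD8 subunit, went from 11.8 ± 2.51 to 101 ± 5.39, while Cd8a, the other subunit, was at 0.0868 ± 0.0730 and 0.258 ± 0.0698, below 1 FPKM in every non-TFH library. In TFH cells, where Tnfrsf9 was not called, 4 of the 5 were higher in KO, Cd8b1 by 2.14 ± 0.18, Gzmb by 1.21 ± 0.36, Ncr1 by 1.04 ± 0.24 and Cd8a by 0.68 ± 0.18, while Nkg7 was at 0.02 ± 0.24. Their sum was 131 and 181 in the 2 WT TFH libraries with all values and 162 to 245 in KO TFH libraries. Whether these genes and Tnfrsf9 come from the same cells was not tested.

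Tnfrsf18 encodes GITR, a costimulatory receptor abundant on regulatory and activated T cells. The gene maps to chromosome 4, 156026164 to 156028895 on the plus strand, with an annotated antisense gene, Gm16008. The level was 46.0, 36.8 and 35.0 FPKM in WT non-TFH libraries and 84.3, 69.2 and 69.4 in KO non-TFH libraries. It was 159, 241 and 177 in WT and 94.6, 114 and 104 in KO TFH libraries. No 2 groups overlapped, and the order was WT non-TFH, KO non-TFH, KO TFH and WT TFH. In non-TFH cells the mean rose from 39.3 ± 5.90 to 74.3 ± 8.68 (SD, n = 3), a log2 change of 0.91 ± 0.16 (limma adjusted p = 0.0016). In TFH cells it fell from 192 ± 43.1 to 104 ± 9.86, a change of -0.85 ± 0.16 (adjusted p = 0.0018). The difference between both changes was -1.76 ± 0.23 (adjusted p = 0.0003). TFH cells held more than non-TFH cells by 2.25 ± 0.16 in WT (adjusted p = 1.8e-07). In KO mice they held more by 0.49 ± 0.16 (adjusted p = 0.017), a call lost with quantile normalization, where the change was 0.12 (adjusted p = 0.5, with 0.00077 to 0.5 over all alternatives), without the filter, and without KO non-TFH replicate 2 or 3 or KO TFH replicate 2.

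Regulatory T cell markers differed in the same groups. The sum of 6 such genes was 38.1 to 50.6 in WT and 58.5 to 83.1 in KO non-TFH libraries, and 362 to 426 in WT and 258 to 319 in KO TFH libraries. In KO TFH cells 3 of the 6 were lower, Foxp3 counted with Ppp1r3fos (-2.57 ± 0.19), Il2ra (-2.03 ± 0.24) and Ctla4, and Nrp1 counted with Mir1903 was higher (0.92 ± 0.24). In KO non-TFH cells Ikzf2 (1.47 ± 0.14) and Ctla4 were higher, while Foxp3, the defining factor of regulatory T cells, was at -0.05 ± 0.19 and Il2ra at -0.33 ± 0.24, neither of them called. Ctla4, an inhibitory receptor of regulatory and activated T cells, changed by 1.25 ± 0.24 in non-TFH and by -1.46 ± 0.24 in TFH cells (adjusted p = 0.0031 and 0.00089). It was the only one of the 6 called in both cell types, and was singled out after its values were seen. The part of regulatory T cells in the level of Tnfrsf18 was not tested.

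Tnfrsf4 encodes OX40, a costimulatory receptor of activated CD4 T cells that binds OX40 ligand on antigen-presenting cells. It lies on chromosome 4, 156013843 to 156016612 on the plus strand, 9.55 kb from Tnfrsf18. In 8 of 12 libraries its entry was joined with that of Sdf4, an upstream neighbour that encodes a calcium-binding protein of the Golgi, so the sum of both genes was tested in all libraries. This sum was 154, 110 and 121 FPKM in WT non-TFH libraries, and 174, 169 and 162 in KO non-TFH libraries. It was 249, 353 and 232 in WT TFH libraries, and 205, 210 and 329 in KO TFH libraries. Non-TFH groups did not overlap, and TFH groups did. Neither change passed, at 0.41 ± 0.20 in non-TFH (adjusted p = 0.2) and -0.17 ± 0.20 in TFH cells (adjusted p = 0.56), and the change in TFH cells was 0.01 without WT TFH replicate 2. The sum was higher in TFH than in non-TFH cells by 1.10 ± 0.20 in WT (adjusted p = 0.00043). In KO mice it was higher by 0.52 ± 0.20 (adjusted p = 0.037), where quantile normalization turned the direction (-0.06). The call was lost under 3 other settings and without any 1 KO non-TFH replicate or KO TFH replicate 3.

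Tnfrsf4 had an entry of its own in 4 TFH libraries. There it stood at 175 FPKM in WT TFH replicate 3, the sole WT library with a separate value, and at 123, 126 and 98.5 in the KO TFH libraries. Sdf4 stood at 57.0 in that WT library and at 82.5, 84.0 and 231 in the KO libraries. Tnfrsf4 thus made up 75.4% of the sum in the WT library and 59.9%, 60% and 29.9% in the KO libraries. The joint value of KO TFH replicate 3 is high through Sdf4, and with 1 WT library the genotypes have no test for Tnfrsf4 alone. Taking each entry that names Tnfrsf4 as it stands gave -1.10 for KO against WT TFH cells (adjusted p = 0.0024, with 0.0024 to 0.98 over all alternatives), an interaction of -1.51 (adjusted p = 0.005, with 0.005 to 0.51) and -0.54 between cell types in KO mice (adjusted p = 0.041, with 0.0031 to 0.8). These values passed, but they set Tnfrsf4 alone in 4 TFH libraries against the sum with Sdf4 in the other 8, and so are not changes of Tnfrsf4.

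Cd27 encodes a costimulatory receptor of resting T cells that binds CD70. It lies on chromosome 6, 125232622 to 125237010 on the minus strand, and overlaps the microRNA gene Mir8113 and, on the other strand, Vamp1. Its entry was joined with Tapbpl, a chaperone of MHC class I loading, in 9 of 12 libraries. The sum of these genes was 198, 231 and 189 FPKM in WT non-TFH libraries and 237, 225 and 264 in KO non-TFH libraries, and 256, 224 and 236 in WT and 256, 249 and 292 in KO TFH libraries. All groups overlapped their neighbours in the order of means. In the 3 TFH libraries with a separate entry, Cd27 with Mir8113 held 77%, 85.2% and 78.9% of the sum, at 172, 201 and 202 FPKM. In 4 of 12 libraries the half-width of the confidence bounds that the authors' tables give for these entries exceeded 50% of the value. No comparison of Cd27 passed with the scaling used here. The change was 0.15 ± 0.10 in TFH (adjusted p = 0.28) and 0.23 ± 0.10 in non-TFH cells (adjusted p = 0.14), where it passed without scaling (0.31) and with array weights (0.24). Between TFH and non-TFH cells it was 0.21 ± 0.10 in WT (adjusted p = 0.079) and 0.13 ± 0.10 in KO mice (adjusted p = 0.26), and both calls depended on the scaling. Without scaling both passed as higher in TFH cells (0.59 and 0.44, adjusted p = 0.00019 and 0.0018), and with quantile normalization both passed as lower (-0.27 and -0.45, adjusted p = 0.019 and 0.00091). The WT value also passed without WT non-TFH replicate 2 (0.30, adjusted p = 0.026). Over all alternatives the adjusted p ran from 0.00019 to 0.95 in WT and from 0.00091 to 0.92 in KO mice, and no direction is given for Cd27 between the cell types.

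Tnfrsf1b encodes TNFR2, the TNF receptor without a death domain, which responds best to membrane-bound TNF and is carried by regulatory and activated T cells as well as by myeloid cells. Its locus is on chromosome 4, 145213463 to 145246870 on the minus strand. The level was 12.2, 11.2 and 12.7 FPKM in WT non-TFH libraries and 12.9, 12.8 and 14.1 in KO non-TFH libraries. It was 57.8, 80.2 and 51.2 in WT and 22.4, 27.5 and 22.3 in KO TFH libraries. All TFH libraries were above all non-TFH libraries, and WT TFH libraries were highest. In TFH cells the mean fell from 63.1 ± 15.2 to 24.1 ± 3.0 (SD, n = 3), a log2 change of -1.33 ± 0.16 (limma adjusted p = 7.1e-05). In non-TFH cells the change was 0.13 ± 0.16 (adjusted p = 0.64), from 12 ± 0.798 to 13.3 ± 0.741, although the groups did not overlap. The difference between both changes was -1.47 ± 0.22 (adjusted p = 0.00082). TFH cells were higher than non-TFH cells by 2.27 ± 0.16 in WT (adjusted p = 1.4e-07) and by 0.80 ± 0.16 in KO mice (adjusted p = 0.00067).

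The 3 genes whose pattern was most like that of Tnfrsf1b were Slc11a1 (Pearson r = 0.994 over 12 libraries), Hexa (0.988) and Slc40a1 (0.987). Slc11a1 and Slc40a1 are metal transporters of macrophages, and Hexa is a lysosomal enzyme. The macrophage sum of 1096 to 1950 in WT and 180 to 239 in KO TFH libraries stands beside the levels of Tnfrsf1b in the same libraries, and its part in them was not tested. The confidence bounds that the authors' deposited tables give for Tnfrsf1b reached from 0 to 26.2 FPKM, before scaling, in WT non-TFH replicate 1. In WT TFH replicate 2, the highest of the 12, they reached from 14.3 to 165 around a value of 89.4, a range that holds the 25.1 to 31.4 of the KO TFH libraries. Without that library the change in TFH cells was -1.15 (adjusted p = 0.00012, with 6.6e-05 to 0.0025 over all alternatives).

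Tnfrsf1a encodes TNFR1, the death domain receptor that binds soluble TNF and lymphotoxin alpha. It lies on chromosome 6, 125349362 to 125362484 on the plus strand, 112 kb from Cd27. The level was 24.7, 24.6 and 24.4 FPKM in WT non-TFH libraries and 10.7, 9.27 and 9.43 in KO non-TFH libraries. It was 15.8, 17.5 and 14.7 in WT and 3.60, 4.61 and 3.42 in KO TFH libraries. No 2 groups overlapped, and KO libraries of both cell types were below WT libraries of both. The mean fell from 24.5 ± 0.150 to 9.78 ± 0.757 in non-TFH cells (SD, n = 3), a log2 change of -1.25 ± 0.13 (limma adjusted p = 2.6e-05). In TFH cells it fell from 16.0 ± 1.38 to 3.88 ± 0.641, a change of -1.80 ± 0.13 (adjusted p = 1.9e-06). The difference between both changes was -0.56 ± 0.18 and did not pass (adjusted p = 0.054), but passed with pseudocounts of 0.1 (-0.70) or 0.5 (-0.63), among other settings (adjusted p 0.019 to 0.16 over all alternatives). From non-TFH to TFH cells the change was -0.59 ± 0.13 in WT (adjusted p = 0.0014), a call lost without scaling (-0.23, with adjusted p 0.00064 to 0.13 over all alternatives). It was -1.15 ± 0.13 in KO mice (adjusted p = 7.6e-06).

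Tnfrsf25 encodes DR3, the death domain receptor for TL1A, which costimulates effector and regulatory T cells. It lies on chromosome 4, 152115934 to 152120119 on the plus strand, 1.17 Mb from Tnfrsf9. The level was 28.8, 33.2 and 33.1 FPKM in WT non-TFH libraries and 13.4, 12.1 and 15.6 in KO non-TFH libraries. It was 23.5, 24.3 and 21.7 in WT and 2.03, 8.51 and 4.98 in KO TFH libraries. As for Tnfrsf1a, the order from the lowest was KO TFH, KO non-TFH, WT TFH and WT non-TFH, with no overlap. In TFH cells the mean fell from 23.2 ± 1.34 to 5.17 ± 3.24 (SD, n = 3), a log2 change of -2.12 ± 0.31 (limma adjusted p = 0.00035). In non-TFH cells it fell from 31.7 ± 2.50 to 13.7 ± 1.76, a change of -1.16 ± 0.31 (adjusted p = 0.019). That call was lost without the filter and without WT non-TFH replicate 2 or 3 or KO non-TFH replicate 1 or 2 (-1.15 to -1.08), with an adjusted p from 0.00029 to 0.1 over all alternatives. The SE of this gene rests in part on the wide spread of the KO TFH libraries. The difference between both changes did not pass (-0.96 ± 0.43, adjusted p = 0.17), except without KO TFH replicate 2 (-1.35, adjusted p = 0.016, with 0.016 to 0.45 over all alternatives). Between TFH and non-TFH cells the change was -0.44 ± 0.31 in WT (adjusted p = 0.23) and -1.39 ± 0.31 in KO mice (adjusted p = 0.0017).

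Of all pairs of members, Tnfrsf25 and Tnfrsf1a were most alike over the 12 libraries, with a Pearson r of 0.95 between their log2 levels. This r and those given for other genes are descriptions over libraries that share 4 groups. Tnfrsf1b and Tnfrsf1a, the pair of receptors for TNF, had an r of -0.05. Their ratio, computed after their values were seen, was 0.49 ± 0.0345 in WT and 1.37 ± 0.143 in KO non-TFH cells, and 3.91 ± 0.599 in WT and 6.23 ± 0.275 in KO TFH cells (SD, n = 3). No group overlapped another in this ratio, which ran from 0.454 to 0.522 in WT non-TFH libraries to 5.97 to 6.52 in KO TFH libraries. In TFH cells both transcripts were lower in KO, and in non-TFH cells Tnfrsf1a was called lower and Tnfrsf1b was not called.

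**Figure D3:**
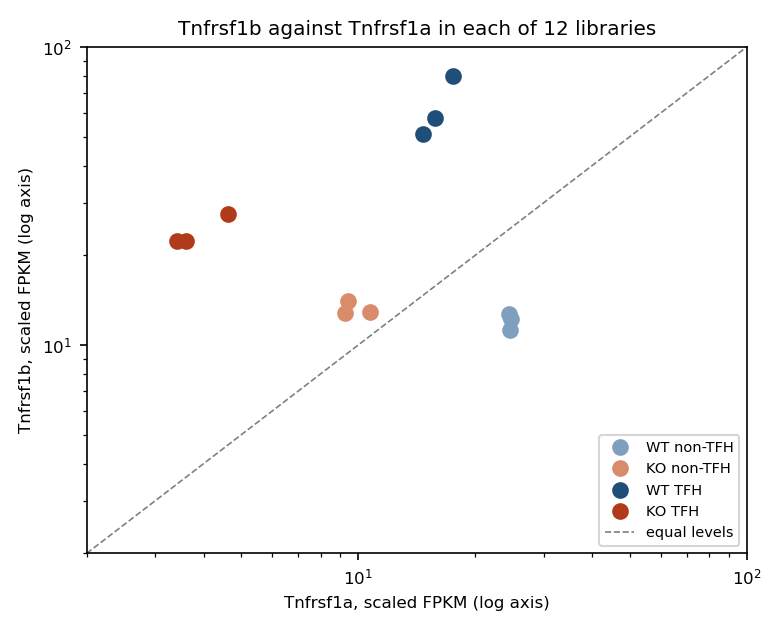
Tnfrsf1b on the vertical axis against Tnfrsf1a on the horizontal axis, both in scaled FPKM on log axes, for each of 12 libraries, with a dashed line where both are equal. WT non-TFH libraries lie below the line at ratios of 0.454 to 0.522, and KO libraries lie left of the WT libraries of the same cell type.

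Promoter sequences are shown for the pair that was lower in KO cells of both kinds, for Tnfrsf1b, and for Tnfrsf9, which had the largest change. Each is the 210 bases before a RefSeq transcript start in GRCm38.p6, the same assembly as mm10, written from 5′ to 3′ on the strand of the gene, with capitals for matches to CCGGAAG or AGGAAG on either strand. Both motifs hold the GGAA core bound by ETS factors, and the base before that core keeps them from matching at the same place.
Tnfrsf1a, chr6:125349513-125349722, plus strand: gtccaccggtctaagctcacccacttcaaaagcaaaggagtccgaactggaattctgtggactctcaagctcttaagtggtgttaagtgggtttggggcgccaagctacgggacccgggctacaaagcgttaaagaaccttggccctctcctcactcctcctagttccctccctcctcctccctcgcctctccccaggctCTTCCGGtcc
Tnfrsf25, chr4:152115724-152115933, plus strand: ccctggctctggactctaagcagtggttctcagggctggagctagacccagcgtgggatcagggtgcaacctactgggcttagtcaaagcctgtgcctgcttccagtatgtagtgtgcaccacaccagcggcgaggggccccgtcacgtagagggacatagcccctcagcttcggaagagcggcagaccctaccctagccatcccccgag
Tnfrsf1b, chr4:145246871-145247080, minus strand: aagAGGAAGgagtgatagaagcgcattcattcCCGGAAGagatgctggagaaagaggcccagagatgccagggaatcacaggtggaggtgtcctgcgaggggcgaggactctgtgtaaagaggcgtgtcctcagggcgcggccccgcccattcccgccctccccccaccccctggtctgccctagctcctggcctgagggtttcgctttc
Tnfrsf9, chr4:150919945-150920154, plus strand: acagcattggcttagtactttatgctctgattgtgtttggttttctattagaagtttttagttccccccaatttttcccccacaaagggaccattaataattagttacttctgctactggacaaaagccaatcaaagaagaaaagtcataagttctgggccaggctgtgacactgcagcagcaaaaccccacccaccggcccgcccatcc
Counting -1 as the last base before the start and giving the first base of each match, Tnfrsf1a held CCGGAAG on the reverse strand at -10, and Tnfrsf1b held CCGGAAG at -178 and AGGAAG at -207. The windows shown for Tnfrsf25 and Tnfrsf9 held neither. The table held 10 starts for the 8 genes. In windows of 250 bases, CCGGAAG was present before 2 of the 10 starts and AGGAAG before 3, against 6.91% and 29.5% of 32851 mouse promoters. The AGGAAG matches outside the stretches shown lay before Tnfrsf1a at -249 and before the second start of Tnfrsf25 at -59. A loose form of the NF-kB motif, GGG and CC with any 5 bases between them, was present before 7 of the 10 starts, of 6 genes, against 45.8% of all promoters. These matches are a description of the letters. Of the members with a match to CCGGAAG, Tnfrsf1a was lower in KO cells of both kinds and Tnfrsf1b in TFH cells, and Tnfrsf25, without that match, was lower in both. GGAA cores with other bases around them were not counted, and whether Ets1 binds any of these sites was not tested.

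Fas encodes the death receptor CD95, which removes activated T cells and is also carried by germinal centre B cells. The locus is on chromosome 19, 34290666 to 34327772 on the plus strand. The level was 21.0, 20.0 and 17.5 FPKM in WT non-TFH libraries and 33.9, 23.9 and 29.8 in KO non-TFH libraries. It was 67.6, 52.5 and 62.8 in WT and 31.4, 53.6 and 51.4 in KO TFH libraries. KO non-TFH libraries were all above WT non-TFH libraries, KO TFH overlapped both KO non-TFH and WT TFH, and KO TFH replicate 1 stood below its 2 partners. Neither change between genotypes passed. It was 0.55 ± 0.20 in non-TFH cells (limma adjusted p = 0.074), from 19.5 ± 1.79 to 29.2 ± 4.98 (SD, n = 3). It was -0.45 ± 0.20 in TFH cells (adjusted p = 0.11), from 60.9 ± 7.74 to 45.4 ± 12.2. The non-TFH change passed under 4 settings (0.53 to 0.62) and without KO TFH replicate 1 (0.55), with an adjusted p from 0.0082 to 0.25 over all alternatives. The difference between both changes passed (-0.99 ± 0.28, adjusted p = 0.029), but was lost under 3 settings and without any 1 of 6 libraries, WT non-TFH replicates 2 and 3, KO non-TFH replicates 1 and 3 and WT TFH replicates 1 and 3 (adjusted p 0.016 to 0.13 over all alternatives). TFH cells were higher than non-TFH cells by 1.59 ± 0.20 in WT (adjusted p = 2e-05) and by 0.60 ± 0.20 in KO mice (adjusted p = 0.018). The second call was lost without the filter, with the 2 groups alone, and without KO non-TFH replicate 2 or KO TFH replicate 2 or 3.

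Set side by side, 6 of the 8 receptors differed between TFH and non-TFH cells in WT mice, 5 higher in TFH cells and Tnfrsf1a lower, where 67.5% of all features were called, 35.2% higher and 32.3% lower. The groups did not overlap for 7 of 8, where 71.7% of features did not. In KO mice 7 of 8 differed, 5 higher and Tnfrsf1a and Tnfrsf25 lower, where 67.2% of all features were called, 33.5% higher and 33.7% lower. Without the filter or without KO non-TFH replicate 2, 4 of 8 differed. The groups did not overlap for 6 of 8, where 73.4% of features did not. These 2 comparisons share no library with each other but share their libraries with the comparisons of genotypes. In both, TFH and non-TFH libraries also differed in Ddx3y. The change from WT to KO differed between the cell types for 4 of 8 receptors, Tnfrsf18, Tnfrsf9, Tnfrsf1b and Fas, where 17.5% of all features were called. All 4 differences were negative. Of all features tested, 10.6% were called negative and 6.94% positive. In WT non-TFH cells the means ran from 206 for Cd27 with Tapbpl and 128 for Tnfrsf4 with Sdf4 down to 12 for Tnfrsf1b and 3.53 for Tnfrsf9, the lowest of the 8. In the other 3 groups Tnfrsf9 ranked 4 by its mean, and Tnfrsf1a was the lowest of the 8.

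The genes most like each receptor over the 12 libraries were named by Pearson r of log2 levels among 6851 features. For Tnfrsf9 they were Tigit (0.993), an inhibitory receptor of T and NK cells, Emc4 (0.990) and Nt5e (0.978), the ectonucleotidase CD73. For Tnfrsf18 they were Leprot (0.980), Ctla4 (0.979) and Cst3 (0.979), the protease inhibitor cystatin C. Tnfrsf1a was closest to Acp5 (0.993), Slc44a2 (0.988) and Crlf3 (0.987), and Tnfrsf25 to Xrn2 (0.976), Fam105a (0.956) and Nabp1 (0.953). For Fas the highest were Tstd3 (0.976), Coa6 (0.960) and Gpr108 (0.959). The joint features gave lower values, up to 0.953 with Pfdn1 for Tnfrsf4 and 0.873 with Snx1 for Cd27.

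The ligands of these receptors, listed together with Ltb, were mostly at low levels in the sorted cells. Of 9 listed ligand genes, 5 were tested, and 3 were lower in KO TFH and 2 in KO non-TFH cells with none higher, where 15.1% and 8.58% of all features were called lower. The median change, taken with Ltb and with the joint feature of Lta given below, was -1.65 in TFH and -0.22 in non-TFH cells. For all features it was 0.04 and 0.03. Tnf, the ligand of TNFR1 and TNFR2, was found at 13.1, 13.2 and 14.3 FPKM in WT non-TFH libraries and 9.09, 7.94 and 6.5 in KO non-TFH libraries, and at 32.6, 22.4 and 24.4 in WT and 6.74, 8.74 and 7.55 in KO TFH libraries. No KO library reached a WT library of its cell type. Tnf fell by 0.73 log2 in non-TFH (SE 0.16, limma adjusted p = 0.008) and by 1.65 in TFH cells (SE 0.16, adjusted p = 2.4e-05), and the changes differed by -0.92 ± 0.23 (adjusted p = 0.017). That difference did not pass without the filter or with the replicate block (adjusted p = 0.076 and 0.052, with 0.012 to 0.076 over all alternatives). Ltb, lymphotoxin beta, which signals through the lymphotoxin beta receptor when joined to lymphotoxin alpha, fell in both cell types, by 2.79 log2 in TFH (SE 0.20, with 2 WT libraries) and by 1.68 in non-TFH cells (SE 0.18). Fasl, the ligand of Fas, fell by 1.22 in TFH cells (SE 0.29, adjusted p = 0.0083), from 10.5 ± 4.61 to 3.90 ± 1.73, and was 4.23 ± 0.356 and 4.46 ± 1.05 in WT and KO non-TFH cells. Tnfsf9, the 4-1BB ligand, ranged from 0 to 11.8 FPKM and passed in neither comparison of genotypes.

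The ligands of GITR, OX40, DR3 and CD27 were too low to be tested. Tnfsf18 reached at most 0.640 FPKM in any library, Tnfsf15 0.274, Tnfsf4 2.06 and Cd70 2.43. Lta, lymphotoxin alpha, could not be separated from the microRNA gene Mir6974 inside it, and the joint value ran from 7.96 to 17718, so no direction is given for it, although it is among the 5 tested.

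For 20 other receptors of the superfamily, 12 features were tested, 1 of them the sum of Tnfrsf22 and Tnfrsf23. Of these features 2 were higher and 3 lower in KO TFH and 1 was higher in KO non-TFH cells (median 0.07 and 0.19), where 30.9% and 20.4% of all features were called. Relt, an orphan receptor of lymphoid tissue, fell from 11.4 ± 1.56 to 3.04 ± 0.801 FPKM in TFH cells (-1.63 ± 0.17, adjusted p = 3.8e-05) and was 26.1 ± 2.90 and 27.6 ± 4.09 in non-TFH cells. Tnfrsf8, which encodes the activation marker CD30, rose from 5.30 ± 0.883 to 15 ± 1.25 in TFH cells (1.35 ± 0.21, adjusted p = 0.00049). In non-TFH cells it was listed at 0 in all WT libraries and at 0.929 to 2.21 in KO libraries. Ltbr, the lymphotoxin beta receptor of stromal and myeloid cells, and Cd40, the receptor of B cells and myeloid cells for the TFH ligand CD40L, were low throughout. Ltbr went from 2.15 ± 1.22 to 0.184 ± 0.164 and Cd40 from 2.41 ± 0.589 to 1.38 ± 0.136 in TFH cells. The macrophage, B cell and dendritic cell sums differed in the same direction, and their part in these values was not tested. The Cd40 call (adjusted p = 0.048) was lost under most settings.

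Of 17 tested adaptors and genes of death signalling, of 18 listed, 2 were higher and 5 lower in KO TFH cells, and 1 was higher and 4 lower in KO non-TFH cells (median -0.18 and 0.02). Of all features 15.8% were called higher and 15.1% lower in KO TFH cells, and 11.8% and 8.58% in KO non-TFH cells. Traf1, an NF-kB-induced adaptor of TNFR2, 4-1BB and CD30, had the largest changes of the list. It fell from 104 ± 19.7 to 18.0 ± 3.89 FPKM in TFH cells (-2.47 ± 0.38, adjusted p = 0.00073) and from 47.6 ± 4.44 to 5.90 ± 4.84 in non-TFH cells (-3.04 ± 0.38, adjusted p = 0.0002). Cflar, which encodes the caspase-8 inhibitor c-FLIP, fell from 26.3 ± 4.86 to 13.0 ± 1.62 in TFH cells (-0.95 ± 0.14) and from 38.0 ± 2.84 to 26.6 ± 2.01 in non-TFH cells (-0.50 ± 0.14, adjusted p = 0.027, lost without scaling, without the filter and without any 1 of 4 non-TFH libraries). Bid, the BH3 protein cut by caspase-8, fell from 27.4 ± 3.05 to 13.2 ± 2.52 in TFH cells and changed by -0.17 ± 0.15 in non-TFH cells. Traf5, an adaptor of CD27 and OX40, did the reverse, at 41.4 ± 3.01 and 43.0 ± 3.82 in TFH cells and falling from 30.4 ± 1.61 to 15.1 ± 1.08 (n = 2) in non-TFH cells, with a difference of 1.02 ± 0.16 (adjusted p = 0.0013).

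Of 17 tested genes of the NF-kB arm, of 18 listed, 1 was higher and 5 lower in KO TFH cells, and 3 were higher and 1 lower in KO non-TFH cells (median -0.12 and 0.06), against 30.9% and 20.4% of all features called in either direction. Nfkb1, the precursor of the p50 subunit, rose in TFH cells from 47.1 ± 14.9 to 129 ± 23.7 FPKM (1.47 ± 0.21, adjusted p = 0.00031) and was 71.0 ± 4.6 and 65.9 ± 2.17 in non-TFH cells. Rel, the subunit c-Rel, fell in TFH cells from 23.7 ± 3.42 to 11.6 ± 5.02 (-1.05 ± 0.25, adjusted p = 0.0073). Nfkbia, the inhibitor IkB alpha, rose in non-TFH cells from 86.8 ± 4.42 to 226 ± 101 (1.28 ± 0.25, adjusted p = 0.0038) and was 351 ± 49.7 and 255 ± 39.6 in TFH cells. Tnfaip3, the feedback inhibitor A20, was 101 ± 25 in WT and 35.3 ± 6.14 in KO TFH cells (-1.47 ± 0.49, adjusted p = 0.046), a call lost under 4 settings and without any 1 of 9 libraries. In non-TFH cells it was 20.4 ± 0.217 in WT and 70.9 ± 66.8 in KO (1.36, not called), with 148 in KO replicate 1. The difference between both changes was -2.83 and passed, with the call kept in 20 of 22 alternatives.

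**Figure D4:**
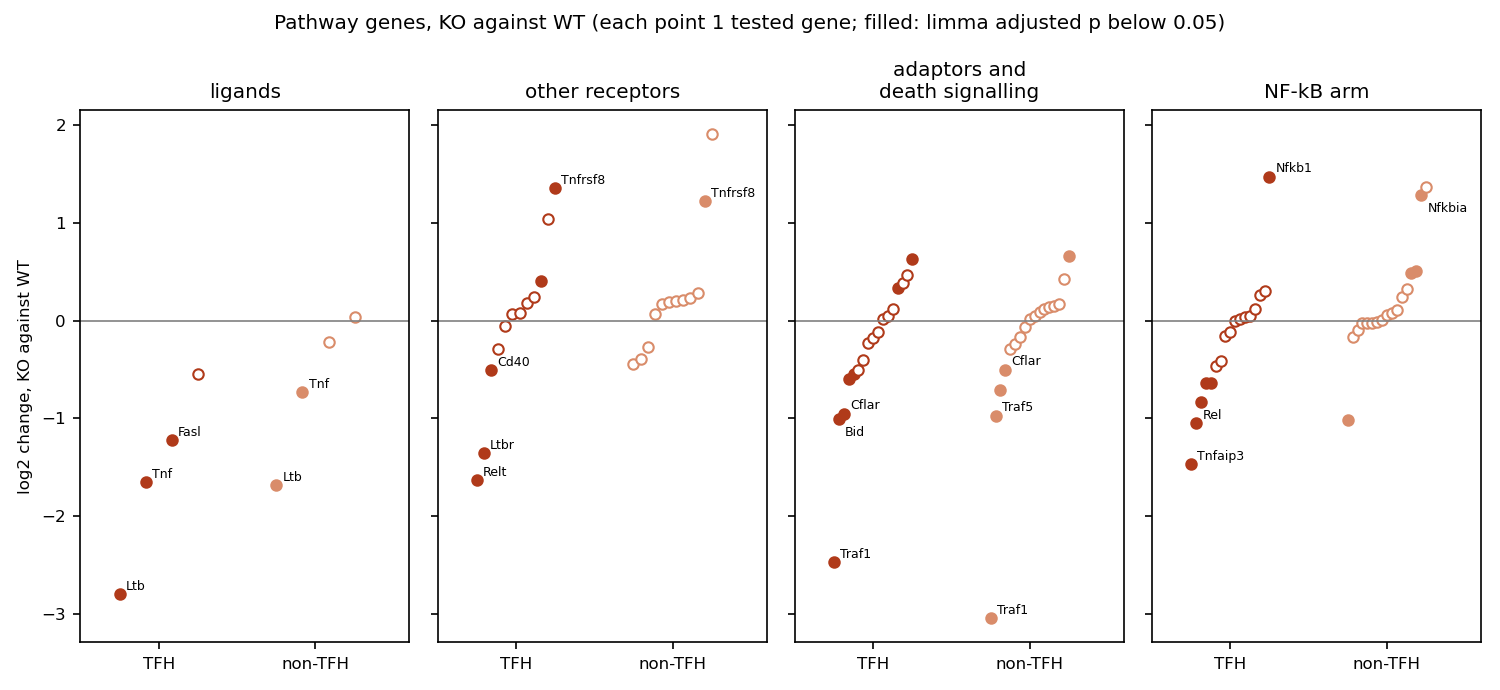
Log2 change of KO against WT on the vertical axis for each tested gene of 4 lists, ligands, other receptors, adaptors with death signalling, and the NF-kB arm, in TFH and non-TFH cells. Tnfrsf22 and Tnfrsf23 share a point in each cell type. Filled points passed limma's adjusted p, genes named in the text are labelled where they passed, and the joint feature of Lta and Mir6974 is left out. Traf1 is the lowest point of its list in both cell types, and Nfkb1 the highest of its list in TFH cells.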

How the data were processed

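Per the labels' protocols, RNA was extracted with Trizol and libraries were made with a stranded mRNA kit. Each library has 1 table of FPKM per gene, as the authors deposited it. The submitters' processing notes name the build mm10 and, with no roles, the tools Cufflinks, Cuffdiff, TopHat, TopHat2, Bowtie, Bowtie2, cutadapt and FastQC. Versions and settings were not given in the sources used here. The tables hold no counts, so depth is unknown and no counting intervals are given. Unnamed assembled loci (12338 to 25171 in WT TFH, 7855 to 10233 in KO TFH and 6803 to 8549 in non-TFH tables) entered no test.

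Genes overlapping in the assembly shared an entry in some libraries. Symbols listed separately in 2 or more libraries per group were used alone (22502 features), and the rest were summed with their neighbours into 737 joint features. This replaces the planned use of own entries for Tnfrsf4 and Cd27, which left too few values. WT non-TFH replicate 1 alone lacked 831 features, left missing. FPKM were divided by a median ratio (0.856 to 1.14) taken over the 7091 features that reached 1 FPKM throughout. Unscaled, the median feature was higher in TFH cells by 0.37 log2 (WT) and 0.27 (KO). Features at 1 FPKM or more in 3 libraries were tested as log2(FPKM + 1) with limma 3.58.1 in R 4.3.3, with 4 group means, a variance trend and robust moderation over all 12 libraries. Tables were read with Python 3.11.15 and pandas 2.3.3. The fit was tested on simulated data first.

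Same-numbered replicates of different groups did not deviate together (correlations of deviations -0.03 to 0.06), so numbers were not treated as pairs. Members and lists were chosen with earlier results of these data known. Named pathway genes were the ligands, and up to 4 genes a list with the largest called change between genotypes. Genes most like a member were the 3 with the highest r at a mean of 5 FPKM or more. Alternatives changed scaling, pseudocount, filter, moderation, weights, the groups fitted, the replicate block and the entries used, or left out 1 library.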

Additional observations from a re-analysis of the deposited data

Results flagged for a closer look

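For 4 of the 8 receptors the interaction term of the fit passed, that is, TFH and non-TFH cells differed in their change from WT to KO. For Tnfrsf9 the difference was -2.93 log2 (limma adjusted p = 1.2e-05), with a rise of 3.25 in non-TFH and a change of 0.32 in TFH cells. For Tnfrsf18 it was -1.76 (adjusted p = 0.0003), with 0.91 in non-TFH and -0.85 in TFH cells. For Tnfrsf1b it was -1.47 (adjusted p = 0.00082), with 0.13 in non-TFH and -1.33 in TFH cells. For Fas it was -0.99 (adjusted p = 0.029), with 0.55 in non-TFH and -0.45 in TFH cells, neither of which passed. The first 3 differences kept their direction and passed under all 22 alternatives run, and that of Fas passed under 13 of 22. Summed markers of macrophages, B cells, dendritic cells and regulatory T cells were also lower in KO than in WT TFH libraries, and those of regulatory T cells and of CD8 T and NK cells were higher in KO than in WT non-TFH libraries. Only 1 of 4 tested dendritic cell markers was called lower in KO TFH cells. Of the regulatory T cell markers, Foxp3 and Il2ra were not called in KO non-TFH cells. Of the CD8 T and NK cell markers, 4 of 5 were also higher in KO TFH cells. Their part in these differences was not tested.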

How the results depend on the processing

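The results on the 8 receptors, 40 in all, were recomputed 912 times under the alternatives. They kept their direction and their side of the threshold in 849, passed newly in 24, no longer passed in 32 and changed direction in 7. Neither the fall of Tnfrsf1a, Tnfrsf1b, Tnfrsf18 and Tnfrsf25 in KO TFH cells, nor the changes of Tnfrsf9, Tnfrsf18 and Tnfrsf1a in KO non-TFH cells, lost its call under any of 23 alternatives. Of the 1144 recomputed results of named pathway genes, 1070 stayed, 12 passed newly, 46 no longer passed and 16 changed direction. The depth of the libraries is unknown, and the limits of low values could not be set. Where no cause is given, the cause was not tested.

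Without scaling, KO against WT in non-TFH cells passed for Cd27 (0.31) and Fas (0.62), TFH against non-TFH cells passed for Cd27 in WT (0.59) and KO mice (0.44), Tnfrsf1a in WT no longer passed (-0.23), and the interaction of Tnfrsf1a passed (-0.66). With quantile normalization, Cd27 changed direction in KO TFH cells (-0.03), and, past the threshold, between cell types in WT (-0.27) and KO mice (-0.45). With it, Tnfrsf4 changed direction between the cell types of KO mice (-0.06), Tnfrsf18 no longer passed there (0.12), and Fas passed in KO non-TFH cells (0.58). With no filter, calls were lost for Tnfrsf25 in KO non-TFH cells (-1.16), for Tnfrsf4 (0.52), Tnfrsf18 (0.49) and Fas (0.60) between the cell types of KO mice and for the interaction of Fas (-0.99). The members called between cell types in KO mice then numbered 4, and features called in the interaction 1169 against 1944. More features with low values are then tested, with p-values adjusted over them.

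With array weights, Cd27 (0.24) and Fas (0.53) passed in KO non-TFH cells, the interaction of Tnfrsf1a passed (-0.59) and that of Fas did not (-0.90). Features called between genotypes numbered 2230 in TFH and 4175 in non-TFH cells, against 3430 and 2262. With only the groups compared they numbered 2167 and 3892, Fas passed in KO non-TFH cells (0.55), Tnfrsf25 passed between cell types in WT mice (-0.44), and Fas did not pass between cell types in KO mice (0.60). Without trend and robust moderation, Tnfrsf4 did not pass between cell types in KO mice (0.52) and the interaction of Tnfrsf1a passed (-0.56), as it did with a pseudocount of 0.1 (-0.70) or 0.5 (-0.63). With the replicate block, Tnfrsf4 between cell types in KO mice (0.52) and the interactions of Fas (-0.99) and Tnf (-0.92) were lost, and the numbers do not pair the samples. Every entry naming Tnfrsf4, which sets the sum with Sdf4 in 8 libraries against Tnfrsf4 alone in 4 TFH libraries, gave -1.10 in KO TFH cells, -0.54 between cell types in KO mice and an interaction of -1.51, all 3 past the threshold, and for Cd27 an interaction of 0.01.

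Leaving out 1 library at a time, the change in KO TFH cells was -0.39 to 0.01 for Tnfrsf4 and 0.14 to 0.50 for Tnfrsf9. In KO non-TFH cells it was -1.25 to -1.08 for Tnfrsf25 and 0.44 to 0.68 for Fas. Between cell types it was 0.16 to 0.30 for Cd27 and -0.50 to -0.39 for Tnfrsf25 in WT mice. In KO mice it was 0.30 to 0.64 for Tnfrsf4, 0.42 to 0.58 for Tnfrsf18 and 0.46 to 0.84 for Fas, with 4 to 7 members called. The interaction was -0.80 to -0.40 for Tnfrsf4, -1.35 to -0.52 for Tnfrsf25, -0.66 to -0.49 for Tnfrsf1a and -1.13 to -0.75 for Fas.

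Among pathway genes, these changed direction. In KO TFH cells Traf5 was -0.01 with quantile normalization and -0.01 to 0.11 without 1 library. In KO non-TFH cells Fasl was -0.01 with quantile normalization and -0.07 to 0.21 without 1 library, and without 1 library Tnfsf9 ranged from -0.86 to 0.31, Lta with Mir6974 from -0.79 to 4.61 and Relt from -0.02 to 0.20. The interaction of Tnfsf9 ranged from -0.86 to 0.31 without 1 library. That of Tnfrsf8, listed at 0 in WT non-TFH cells, was -2.31 with a pseudocount of 0.1, -0.43 with 0.5 and 0.00 to 0.36 without 1 library, so no difference between cell types is given for it.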
